A study of Homo sapiens with 12 samples.

Results

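The mRNAs of 55 genes of ribosome biogenesis, among them the subunits and factors of RNA polymerase I, were examined in A375 melanoma cells after 8 h of drug exposure. The genes were chosen by name and function, with earlier results of these data known. All 55 of 55 were found among the 58347 genes counted in each sample. Every one of them passed the filter on low counts, as did 16740 genes in all. RNA sequencing was performed on 12 samples in 4 groups of 3, which received the DMSO vehicle, tretinoin, vemurafenib, or both drugs (the combination). The labels give 5 µM as the dose of each group, DMSO among them. A375 is an established human melanoma line with a mutant BRAF kinase, and every sample came from this single line. Vemurafenib blocks the mutant BRAF kinase, and tretinoin (all-trans retinoic acid) activates the retinoic acid receptors. The labels state that each treatment was applied in triplicate, so P-values measure the spread between these samples.

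Ribosomes are built in the nucleolus, where RNA polymerase I copies the ribosomal DNA into a long precursor. The precursor is modified by small nucleolar ribonucleoprotein particles (snoRNPs), cleaved by the small subunit processome, and assembled with ribosomal proteins into the 40S and 60S subunits. Transcription of these genes is known to follow growth signals and the MYC family of factors, which bind the sequence CACGTG, called the canonical E-box. The 55 genes were ordered by role into RNA polymerase I and its factors (6 genes), nucleolar scaffold and chaperone proteins (5), the core proteins of box C/D snoRNPs (3) and of box H/ACA snoRNPs (4), the small subunit processome and 40S maturation (19), and 60S assembly (18).

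Promoter windows from RefSeq (GRCh38.p14), which run from 250 bases before to 50 bases after the transcription start, matched 48 of the 55 genes. The palindrome CACGTG, which reads alike on both strands, was present in 19 of these 48 genes (39.6%), against 1453 of the 11703 tested genes that had a window (12.4%) and 8.77% of all 27305 genes with one. A copy within 50 bases of the start was present in the same 19 of 48 genes (39.6%), against 601 of the 11703 tested genes (5.14%). Of the 1453 tested genes with the motif, these 601 had it that close. The stretches below, from 60 bases before to 20 bases after the start, are shown because they place this motif in genes whose values are described further on. Capitals mark CACGTG, and each sequence reads 5′ to 3′ on the strand of its gene.
PNO1, chr2:68157828-68157907, plus strand: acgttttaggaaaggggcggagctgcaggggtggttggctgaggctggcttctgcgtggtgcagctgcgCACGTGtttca
RRP9, chr3:51941885-51941964, minus strand: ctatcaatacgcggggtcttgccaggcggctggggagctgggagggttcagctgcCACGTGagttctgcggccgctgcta
DDX21, chr10:68956587-68956666, plus strand: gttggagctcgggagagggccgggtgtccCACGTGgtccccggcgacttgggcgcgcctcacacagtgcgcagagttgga
FBL, chr19:39846360-39846439, minus strand: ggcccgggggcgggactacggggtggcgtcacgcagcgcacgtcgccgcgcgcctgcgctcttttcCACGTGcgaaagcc
NOP10, chr15:34343117-34343196, minus strand: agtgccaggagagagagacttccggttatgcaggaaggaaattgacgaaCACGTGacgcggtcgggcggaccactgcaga
WDR43, chr2:28894607-28894686, plus strand: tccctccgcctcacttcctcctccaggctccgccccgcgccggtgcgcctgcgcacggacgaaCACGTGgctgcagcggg
MRTO4, chr1:19251745-19251824, plus strand: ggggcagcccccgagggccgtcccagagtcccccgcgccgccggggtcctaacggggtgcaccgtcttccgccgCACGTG
GNL3, chr3:52685972-52686051, plus strand: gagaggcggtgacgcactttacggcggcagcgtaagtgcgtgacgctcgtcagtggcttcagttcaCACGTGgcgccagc

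UBTF, the gene whose mRNA was not called lower with vemurafenib, had 2 windows in RefSeq and no CACGTG in either. In all, 29 of the 48 genes had a window without CACGTG, UBTF among them. Their median log2 fold change with vemurafenib was -0.79 (range -1.31 to 0.10), as was that of the 19 genes with it (-0.79). All the other genes without CACGTG were called lower. The UBTF stretches are shown only as windows without the motif, and UBTF was chosen after its values were seen.
UBTF (start 1), chr17:44220863-44220942, minus strand: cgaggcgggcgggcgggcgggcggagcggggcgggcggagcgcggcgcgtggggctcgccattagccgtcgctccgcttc
UBTF (start 2), chr17:44219656-44219735, minus strand: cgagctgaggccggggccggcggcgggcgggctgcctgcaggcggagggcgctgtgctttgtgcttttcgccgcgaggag

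Counting the first transcribed base as 1, the motif began at base 10 in PNO1, 7 in FBL, 4 in WDR43, 15 in MRTO4 and 7 in GNL3. It began 5 bases before the start in RRP9, 31 before it in DDX21, and 11 and 170 before it in NOP10. The other genes with the motif were GAR1, NOP14, UTP4, UTP20, NOL6, IMP4, BYSL, LTV1, NOP2, PES1 and NOC3L. Of the other motifs searched on both strands, CCGGAAG, the core of many ETS sites, was present in 43.8% of the 48 genes and 21.1% of the tested genes. CACGCG, a further E-box form, was present in 33.3% and 21.9%, GCGCATG, part of the NRF1 site, in 8.33% and 8.59%, and TATAAA, the TATA box, in 4.17% and 8.83%. These motifs differ in sequence and can still overlap in a window. A match describes letters in the window and no more.

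Sequencing depth ranged from 13510235 to 21534377 counted fragments per sample, and the TMM normalization factors lay between 0.901 and 1.07. Vemurafenib lowered DUSP6, a feedback inhibitor of ERK, from 2199 ± 97.5 to 32.7 ± 6.6 normalized counts (mean ± SD of 3 samples, adjusted P = 9.4e-16 in edgeR). Tretinoin raised DHRS3, a retinoid-inducible reductase, from 375.4 ± 57.5 to 2817 ± 215 (adjusted P = 1.9e-12). Of the other retinoid-response genes examined, TGM2 (0.48 on the log2 scale) rose with tretinoin, while RARB (0.82) and CYP26A1 (0.51) did not pass the test. Vemurafenib alone raised DHRS3 (1.74) and RARB (2.80) and lowered TGM2 (-1.52), and CYP26A1 did not pass. The summed raw counts of 8 melanocyte lineage markers were 433 to 498 with DMSO, 360 to 498 with tretinoin, 755 to 920 with vemurafenib and 732 to 912 with the combination. TYR was at no more than 1 count, and SOX10 was listed at 0 in every sample, although it could not be settled whether its row is complete. With vemurafenib MITF (0.88) and TYRP1 (2.32) rose on the log2 scale, while PMEL (-0.52) and S100B (0.02) did not pass the test. Markers of other cell types were summed over fewer genes, so their sums cannot be set directly against those of the 8 melanocyte markers. In the same order of groups the sums were 13 to 36, 39 to 63, 51 to 66 and 76 to 87 for 4 leukocyte markers. They were 50 to 79, 32 to 73, 73 to 92 and 42 to 75 for 4 epithelial markers. For 3 fibroblast markers they were 70 to 115, 64 to 80, 184 to 219 and 136 to 158. For 3 endothelial markers they were 82 to 117, 232 to 283, 40 to 61 and 97 to 137. No marker of these other cell types was at 0 in every sample. Their part in the results was not tested.

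Tretinoin replicate 1 stood apart from the rest of its group. The median of the 55 genes, as the log2 normalized count minus the DMSO mean, was -0.28 in this library and -0.09 and -0.08 in the other tretinoin samples. It held the lowest value of its group for 41 of the 55 genes, and for 38.0% of all tested genes. It was also the library with the lowest total count. The calls, medians and fold changes of the comparisons that use the tretinoin group are given below also without it.

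The 55 genes together made up 1.51 ± 0.0361% of all counted fragments with DMSO, 1.36 ± 0.133% with tretinoin, 1.1 ± 0.03% with vemurafenib and 1.11 ± 0.0462% with the combination (mean ± SD, n = 3). The DMSO samples were at 1.5%, 1.55% and 1.48%, the tretinoin samples at 1.21%, 1.44% and 1.44%, the vemurafenib samples at 1.07%, 1.1% and 1.13%, and the combination samples at 1.16%, 1.08% and 1.08%. All 6 samples that had received vemurafenib lay below all 6 that had not. This sum weighs genes by their counts. The mean normalized count over all samples was 71952 for NPM1 and 21234 for NCL, against 1525 for POLR1B. In bulk RNA, fewer cells that express a gene and less of its RNA per cell cannot be told apart.

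**Figure D1:**
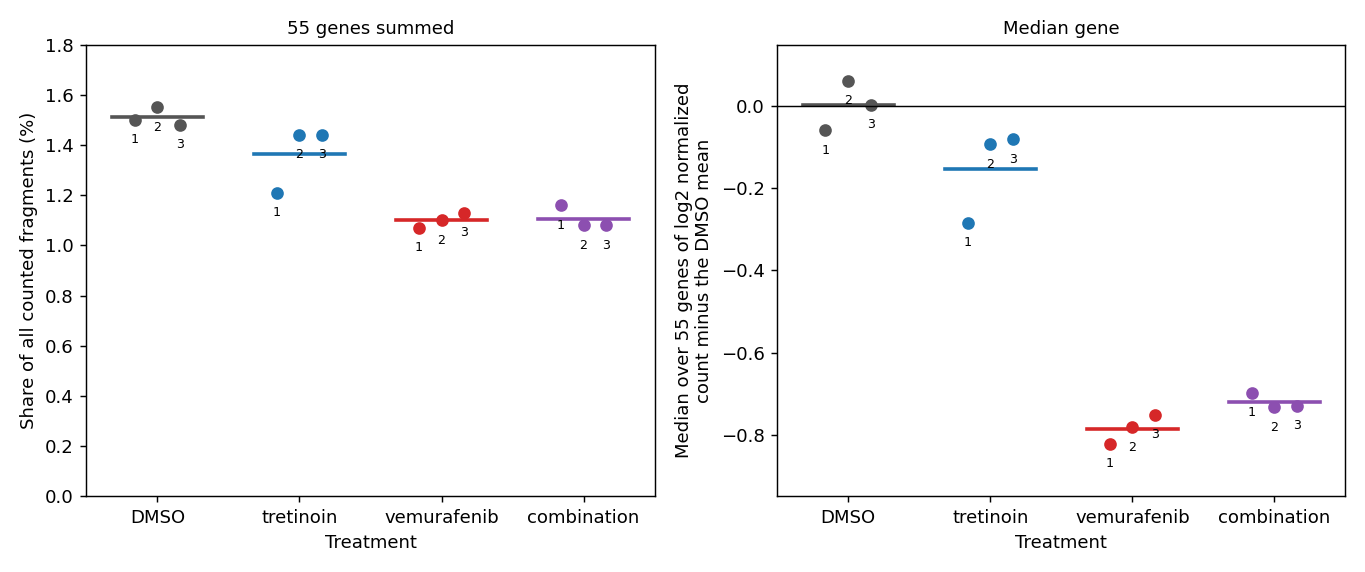
Share of all counted fragments taken by the 55 genes together (left, percent) and the median over the 55 genes of the log2 normalized count minus the DMSO mean (right), by treatment. Points are the 12 samples with their replicate numbers and lines are group means; the vemurafenib and combination samples sit at or below 1.16% on the left and -0.70 on the right, and tretinoin replicate 1 lies below the other tretinoin samples.

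The first comparison asks what BRAF inhibition alone did to these genes. With vemurafenib, 54 of the 55 mRNAs fell relative to DMSO and none rose in edgeR's quasi-likelihood test at a Benjamini-Hochberg adjusted P of 0.05. Of all 16740 genes tested, 26.3% fell and 26.4% rose. The median log2 fold change of the 55 genes was -0.79, or 58.0% of the DMSO level, against a median of 0.02 over all genes tested. The 55 genes are well expressed: 46 of them were in the highest 25% of genes by mean count, where 47.4% of 4185 genes fell and the median was -0.18. In 54 genes (98.2%) every vemurafenib sample lay below every DMSO sample, against 30.9% of all genes tested. A log2 fold change below -1 was seen in 12 of the 55 genes and in 4.68% of all genes tested.

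By role, all 19 genes of the small subunit processome and 40S maturation fell (median -0.79), as did all 18 genes of 60S assembly (median -0.84), all 5 nucleolar scaffold and chaperone genes (median -0.74), all 3 box C/D genes (median -0.76) and all 4 box H/ACA genes (median -0.50). Of the 6 genes of RNA polymerase I and its factors 5 fell, with a median of -0.61. Standard errors of the log2 fold changes of the 55 genes lay between 0.066 and 0.151. With libraries scaled by total counts in place of TMM, the median of all genes shifted by 0.195 and the share of calls that were falls went from 49.9% to 28.6%. Such a change of scaling moves all genes of a comparison by about the same amount. The distance of the 55 genes from the median of all genes, -0.80 under both scalings, was therefore fixed in advance. Their own median went from -0.79 to -0.59, and 50 of them were still called lower.

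**Figure D2:**
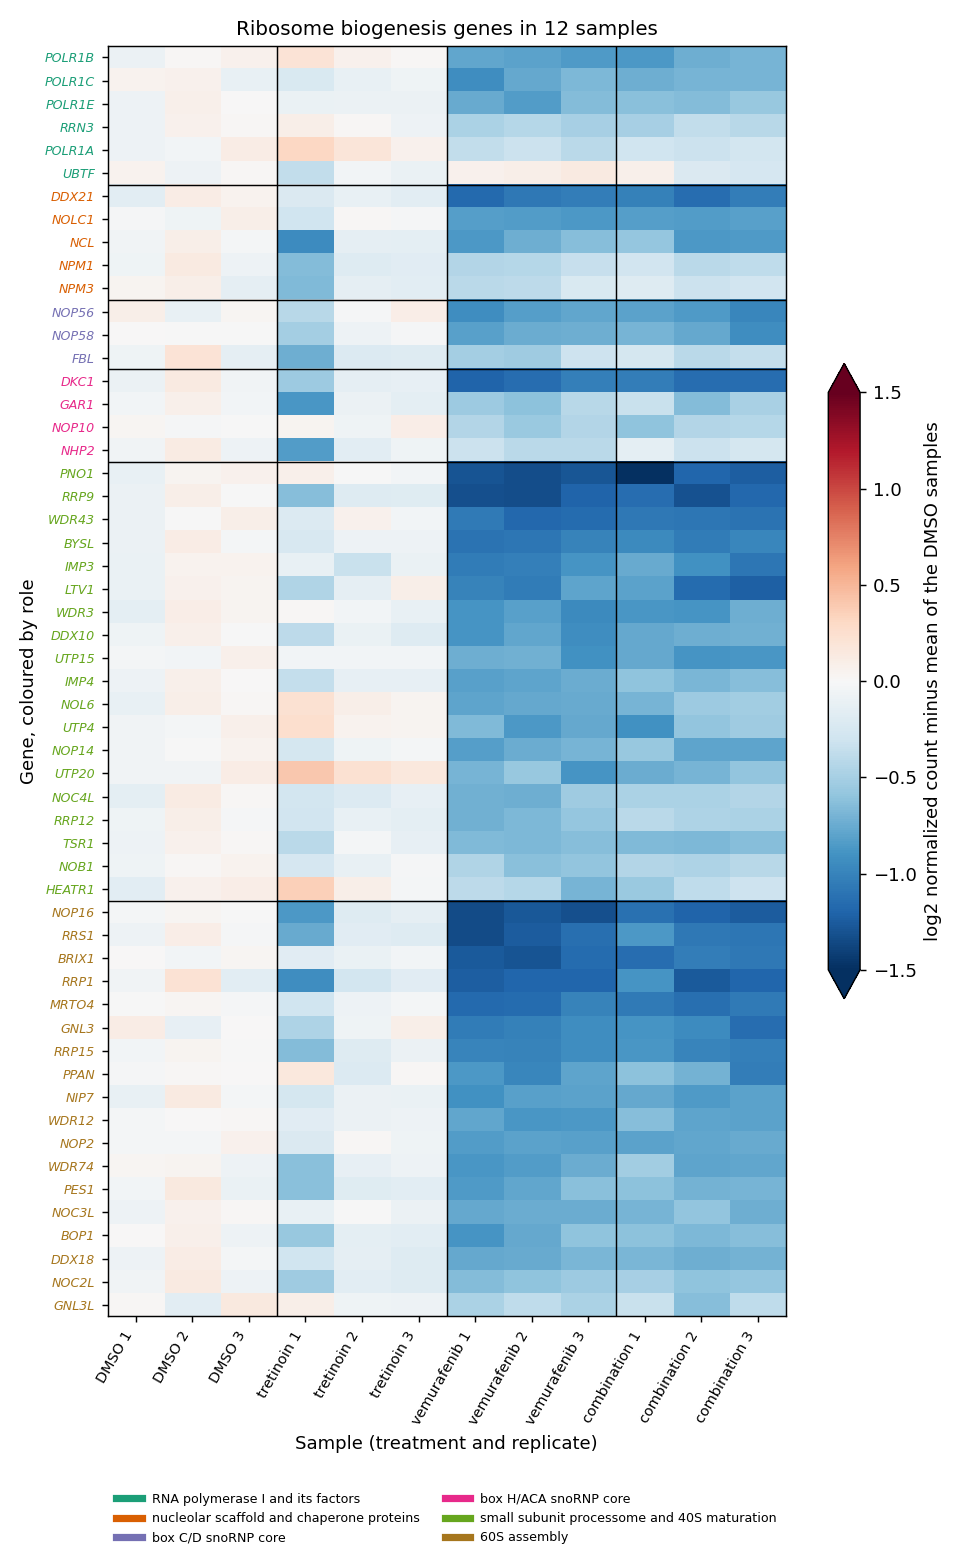
Log2 normalized count minus the mean of the DMSO samples (colour, blue lower and red higher) for the 55 genes (rows, coloured and ordered by role) in the 12 samples (columns). The vemurafenib and combination columns are blue in every row but UBTF, and tretinoin replicate 1 is darker than the other tretinoin columns for NCL, NPM1, FBL, GAR1, NHP2, NOP16 and RRP1.

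RNA polymerase I copies only the ribosomal DNA. POLR1B (ENSG00000125630.15, chr2:112541915-112577150, plus strand), its second largest subunit, had the deepest fall in this role. It was at 1782, 1908 and 1977 with DMSO, 2175, 1975 and 1914 with tretinoin, 1104, 1081 and 1049 with vemurafenib and 1040.0, 1135 and 1163 with the combination in normalized counts. The tretinoin samples lay within or above the DMSO range, and all samples with vemurafenib lay well below it. Vemurafenib changed POLR1B by -0.81 ± 0.071 (adjusted P = 4.7e-08) on the log2 scale. POLR1C, a subunit shared with RNA polymerase III, and POLR1E, a subunit of RNA polymerase I alone, fell by similar amounts, at -0.79 and -0.75 on the log2 scale. RRN3, the factor that makes the polymerase competent to initiate, was at -0.47, and POLR1A, the largest and catalytic subunit, at -0.37. With total-count scaling POLR1A was at -0.17 and no longer passed. RRN3 shares up to 948 bases of exon sequence with 5 other genes at 98% identity or more, so its counts are less certain.

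UBTF (ENSG00000108312.14, chr17:44205033-44221626, minus strand) encodes the upstream binding factor, which coats the ribosomal DNA and recruits the polymerase. It is described here because it was the 1 gene not called lower, and was chosen after its values were seen. Its normalized counts were 4181, 3826 and 4052 with DMSO, 3101, 3909.9 and 3758 with tretinoin, 4204, 4263 and 4418 with vemurafenib and 4235, 3459 and 3378 with the combination. The vemurafenib samples were all above the DMSO samples, by a small margin, as for 30.9% of all genes tested. Its log2 fold change of 0.10 ± 0.092 (adjusted P = 0.4) did not pass the test. With total-count scaling it was 0.29 and passed. With the combination the samples overlapped those of DMSO, and the log2 fold change was -0.12 ± 0.092 (adjusted P = 0.27). Without combination replicate 1, the highest of its group, the combination value was -0.24 and passed the test.

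The nucleolar scaffold and chaperone genes include the most abundant of the 55. As TMM-adjusted FPKM (fragments per kilobase of exon, scaled to library depth), NPM1 was at 1250.0 with DMSO and 943 with vemurafenib, NCL at 229 and 137, and FBL at 212 and 154. At the other end, DDX10 was at 7.14 and 3.92, and PPAN at 3.51 and 1.91. These were the 3 highest and the 2 lowest levels of the 55 genes by their mean over all samples.

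NPM1 (ENSG00000181163.13, chr5:171387116-171411137, plus strand) encodes nucleophosmin, a chaperone of histones and ribosomal proteins. Its normalized counts were 82736, 94502 and 81928 with DMSO, 54704, 75529 and 76374 with tretinoin, 63549, 64181 and 68054 with vemurafenib and 70414, 65266 and 66183 with the combination. Every sample of the 3 drug groups lay below every DMSO sample, and tretinoin replicate 1 was the lowest of all 12. With vemurafenib it changed by -0.41 ± 0.106 (adjusted P = 0.004) on the log2 scale, and 50 of the 55 genes had a lower value. With total-count scaling NPM1 was at -0.21 and no longer called. NPM1 shares up to 834 bases with the pseudogene NPM1P27, which could take some of its fragments.

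NCL (ENSG00000115053.15, chr2:231453531-231483641, minus strand) encodes nucleolin, which binds the nascent ribosomal precursor. Its normalized counts were 27509.9, 30333 and 28123 with DMSO, 14842, 26087 and 25781 with tretinoin, 15804, 17189.5 and 18384 with vemurafenib and 19161, 15746 and 15841 with the combination. All samples of the drug groups lay below the DMSO samples, and tretinoin replicate 1 was again the lowest of the 12. The change with vemurafenib was -0.74 ± 0.151 (adjusted P = 0.0005) on the log2 scale, with the largest standard error of the 55 genes. DDX21 (ENSG00000165732.12, chr10:68956128-68985073, plus strand), an RNA helicase that works on both the ribosomal precursor and snoRNAs, had the deepest fall of this role. It was at 10429.6, 12623 and 12075 with DMSO, 10012, 10761 and 10497 with tretinoin, 5208, 5550.2 and 5708 with vemurafenib and 5801, 5298 and 5674 with the combination in normalized counts. Tretinoin samples overlapped those of DMSO, and samples with vemurafenib lay far below both. Its log2 fold change was -1.09 ± 0.077 (adjusted P = 2.8e-09), or 46.9% of the DMSO level. NOLC1, a chaperone of snoRNPs, was at -0.84, and NPM3, a relative of nucleophosmin, at -0.34 ± 0.108 (adjusted P = 0.013). NPM3 was no longer called lower without DMSO replicate 2 or without vemurafenib replicate 1 or 2, where its value lay between -0.32 and -0.30, or with total-count scaling, where it was -0.15.

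Box C/D snoRNPs place methyl groups on ribosomal RNA. FBL (ENSG00000105202.8, chr19:39834458-39846414, minus strand), the methyltransferase fibrillarin, was at 7877, 9534 and 7504 with DMSO, 4981, 7147 and 7199 with tretinoin, 5793, 5725 and 6652 with vemurafenib and 6889.5, 6234 and 6433 with the combination in normalized counts. Samples of each drug group lay below those of DMSO, and tretinoin replicate 1 was the lowest of all. FBL changed by -0.46 ± 0.119 (adjusted P = 0.0039) with vemurafenib on the log2 scale. NOP56 (ENSG00000101361.16, chr20:2652145-2658393, plus strand), a scaffold of the same particle, was at 7291, 6330.3 and 6996 with DMSO, 5151, 6779 and 7355 with tretinoin, 3600.3, 3858 and 3986 with vemurafenib and 3920.5, 3814 and 3488 with the combination. Here tretinoin overlapped DMSO and both vemurafenib groups were lower, with a log2 fold change of -0.85 ± 0.103 (adjusted P = 2.3e-06) for vemurafenib. NOP58, the partner of NOP56, was at -0.76.

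Box H/ACA snoRNPs convert uridines to pseudouridine. DKC1 (ENSG00000130826.17, chrX:154762742-154777689, plus strand), the pseudouridine synthase dyskerin, was at 7898, 9211 and 8033 with DMSO, 5708, 7615 and 7654 with tretinoin, 3650.0, 3794 and 4096 with vemurafenib and 4074, 3781 and 3790.2 with the combination in normalized counts. The tretinoin samples lay below those of DMSO, and the samples with vemurafenib lower again. Its log2 fold change with vemurafenib was -1.12 ± 0.099 (adjusted P = 4.7e-08). Of its 3 partners, GAR1 fell by 0.53, NOP10 by 0.48 and NHP2 by 0.37 on the log2 scale. NHP2 had an adjusted P of 0.023, shares 27.4% of its exon bases with a neighbouring gene and up to 179 bases with the pseudogene NHP2P1. NHP2 was no longer called lower without DMSO replicate 2 or without vemurafenib replicate 2 or 3, where its value lay between -0.37 and -0.31, or with total-count scaling, where it was -0.18.

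The small subunit processome holds the U3 snoRNP and cleaves the precursor toward 18S rRNA, and later factors bring the pre-40S particle to the cytoplasm. PNO1 (ENSG00000115946.7, chr2:68157844-68176238, plus strand), which stays on the pre-40S particle and works with the nuclease NOB1, was at 1189, 1328 and 1349 with DMSO, 1353, 1286 and 1252 with tretinoin, 523, 513 and 527 with vemurafenib and 453, 564 and 547 with the combination in normalized counts. DMSO and tretinoin samples overlapped, and every sample with vemurafenib was far below the lowest of them. Its log2 fold change was -1.31 ± 0.083 (adjusted P = 7.1e-10), or 40.4% of the DMSO level. RRP9 (ENSG00000114767.6, chr3:51933430-51941941, minus strand), a protein specific to the U3 snoRNP, was at 2937, 3318 and 3089.5 with DMSO, 1998, 2721 and 2749 with tretinoin, 1251, 1239 and 1354 with vemurafenib and 1408, 1256 and 1380.1 with the combination. Tretinoin samples were below those of DMSO, and samples with vemurafenib were below all of these. RRP9 changed by -1.28 ± 0.1 (adjusted P = 9.9e-09) with vemurafenib on the log2 scale.

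WDR43, a processome subunit that binds the nascent precursor, was at -1.13, and BYSL, an assembly factor of the 40S subunit, at -1.07 on the log2 scale. IMP3 and IMP4, which join the U3 snoRNA to the precursor, were at -0.98 and -0.79, and LTV1, which is released late from the pre-40S particle, at -0.94. The other members of this role, namely NOP14, WDR3, UTP4, UTP15, UTP20, NOL6, NOC4L, RRP12, DDX10, TSR1, NOB1 and HEATR1, lay between -0.89 for WDR3 and -0.50 for HEATR1, and each passed the test. Exons that overlap another gene made up 59.3% of the exon bases of IMP3 and 34.8% of those of LTV1. Fragments over such bases were counted for neither gene.

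The 60S assembly factors held 6 of the 12 falls below -1. NOP16 (ENSG00000048162.20, chr5:176383938-176388975, minus strand), a nucleolar protein of early pre-60S particles, was at 1847, 1921 and 1871 with DMSO, 1036, 1638 and 1714 with tretinoin, 740.5, 777 and 754 with vemurafenib and 863, 814 and 790.3 with the combination in normalized counts. Tretinoin samples were below DMSO, with replicate 1 far lower than the others, and all samples with vemurafenib were below tretinoin replicate 1. NOP16 had the lowest log2 fold change of the 55 genes with vemurafenib, -1.31 ± 0.126 (adjusted P = 1.3e-07), or 40.3% of the DMSO level. RRS1 (ENSG00000179041.3, chr8:66429028-66430733, plus strand), which brings the 5S ribonucleoprotein into the particle, was at 1749, 1968 and 1818 with DMSO, 1093, 1635 and 1607 with tretinoin, 728, 776 and 845 with vemurafenib and 1013, 874 and 871 with the combination. The same order was seen, with a log2 fold change of -1.24 ± 0.119 (adjusted P = 1.3e-07).

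BRIX1 (ENSG00000113460.12, chr5:34915376-34925996, plus strand), which is needed for assembly of the early particle, was at 2650.5, 2558 and 2685 with DMSO, 2345, 2453 and 2566 with tretinoin, 1094, 1076 and 1187 with vemurafenib and 1192, 1283 and 1251 with the combination in normalized counts. Samples within each group were close together. DMSO and tretinoin overlapped in 1 sample, and every sample with vemurafenib lay far below both groups. Its log2 fold change, -1.23 ± 0.066 (adjusted P = 7.1e-11), had the smallest P of the 55 genes. RRP1 (-1.21), MRTO4 (-1.11), which holds the place of the ribosomal stalk, and GNL3, a nucleolar GTPase also called nucleostemin that lay just past -1, completed the 6. The PeBoW complex, which is needed to process the precursor of 28S rRNA, fell in all of its parts, with PES1 at -0.76, BOP1 at -0.75 and WDR12 at -0.84.

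The other 60S factors, NOP2, WDR74, NOC2L, NOC3L, RRP15, DDX18, NIP7, PPAN and GNL3L, lay between -0.97 for RRP15 and -0.45 for GNL3L. Overlapping exons made up 59.8% of the exon bases of PPAN, which has a readthrough partner, and 54.4% of those of NOP2. PPAN had the fewest counts of the 55 genes, with 162, 166 and 164 in the DMSO samples.

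**Figure D3:**
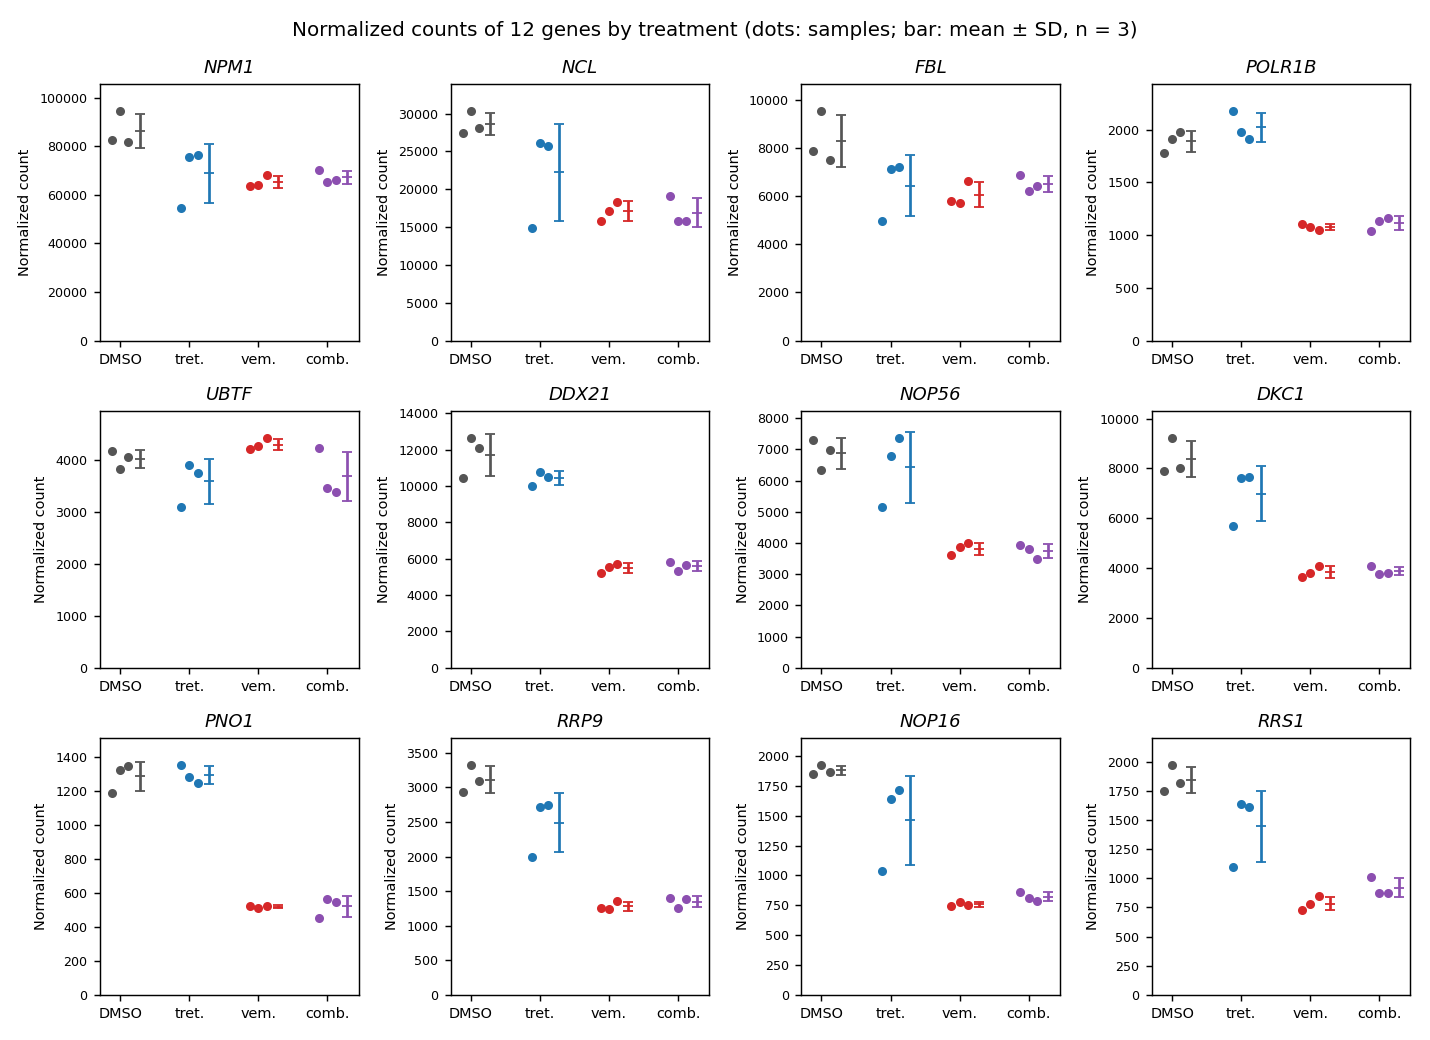
Normalized counts of 12 of the genes in each sample (dots) by treatment, with the mean ± SD of 3 replicates beside them. Axes start at 0; POLR1B, DDX21, DKC1, PNO1 and RRP9 drop in both vemurafenib groups, the UBTF dots of vemurafenib lie just above those of DMSO, and tretinoin replicate 1 is the lowest tretinoin dot for NPM1, NCL and FBL.

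Fold changes were also described for genes with and without the E-box in their window. The median log2 fold change with vemurafenib was -0.79 for the 19 genes with CACGTG, with a range of -1.31 to -0.46, and -0.79 for the 29 genes whose window lacked it, with a range of -1.31 to 0.10. These values are a description of the 48 genes with a window, with no test. Of the 12 genes below -1, PNO1, RRP9, DDX21, WDR43, MRTO4, BYSL and GNL3 had the motif. NOP16, BRIX1, RRP1 and DKC1 had a window without it, and RRS1 had no window. FBL and NOP10, which also hold the motif near the start, were at -0.46 and -0.48.

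**Figure D4:**
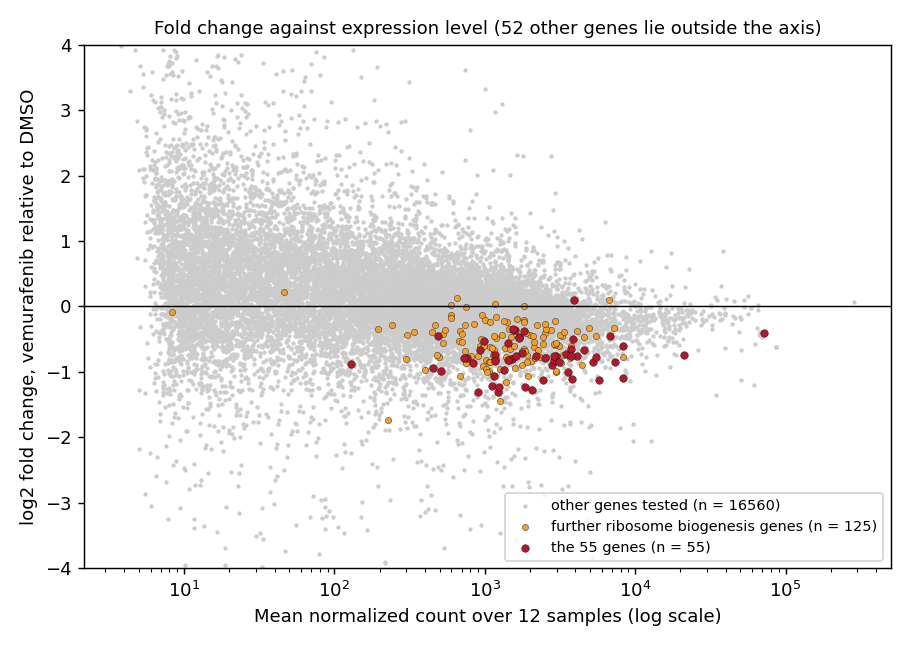
Log2 fold change with vemurafenib relative to DMSO (vertical) against the mean normalized count over the 12 samples (horizontal, log scale) for the 55 genes, 125 further ribosome biogenesis genes and the other genes tested. Of the 55 genes 54 lie below the line at 0, and 52 other genes fall outside the vertical range shown.

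The further genes of the pathway were a list of 125 named for their function, also with earlier results of these data known. All of them were found and passed the count filter. With vemurafenib 110 of them fell and none rose, with a median log2 fold change of -0.57. Of all genes tested 26.3% fell, and of the highest 25% by mean count 47.4%. The falls came to 39 of 43 further genes of the small subunit processome and 40S maturation, 42 of 47 of 60S assembly, 14 of 16 of the exosome and trimming factors, 7 of 9 of snoRNP assembly and 8 of 10 of RNA polymerase I and its factors. The deepest fall was that of POLR1G (CD3EAP in GENCODE 29), a subunit of RNA polymerase I. It was at 324, 371 and 332 with DMSO, 404, 297 and 313 with tretinoin, 84.5, 104 and 122 with vemurafenib and 139, 120.0 and 106 with the combination in normalized counts. The samples with vemurafenib lay far below all others, and the log2 fold change was -1.73 ± 0.147 (adjusted P = 2.9e-08). Exons of POLR1G overlap those of neighbouring genes over 45.1% of their bases.

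After POLR1G came CCDC86, a nucleolar protein, at -1.45, URB2 at -1.15, RRP1B at -1.07 and MAK16 at -1.06 on the log2 scale, the last of these acting in early 60S assembly. The 15 genes that did not pass included the kinases RIOK2 and RIOK3, TAF1C and TAF1D of the promoter selectivity factor of RNA polymerase I, and the exosome subunits EXOSC1 and EXOSC10.

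The next comparison asks what the combination did relative to the vehicle. It shares its DMSO samples with the comparison above. With the combination 53 of the 55 mRNAs fell and none rose, against 26.5% and 27.1% of all genes tested and falls of 47.2% in the highest 25% of genes by mean count. The median log2 fold change was -0.71, or 60.9% of the DMSO level, and that of all genes 0.02. In 54 genes (98.2%) every combination sample lay below every DMSO sample, against 30.5% of all genes. On the log2 scale 11 of the 55 genes were below -1, against 4.77% of all genes. UBTF and NHP2 did not pass the test, and NHP2 was at -0.25 ± 0.13 (adjusted P = 0.12). With total-count scaling 48 of the 55 genes fell, and the share of all calls that were falls went from 49.5% to 31.8%.

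PNO1 had the deepest fall with the combination, at -1.30 ± 0.082 (adjusted P = 6.4e-10). Of the genes described above, RRP9 was at -1.21, NOP16 at -1.19, DKC1 at -1.11, BRIX1 at -1.08, DDX21 at -1.07, RRS1 at -1.01, NOP56 at -0.88, POLR1B at -0.76 and NCL at -0.76 on the log2 scale, and all of them passed the test. NPM1 (-0.36) and FBL (-0.35) had adjusted P of 0.0085 and 0.02, and NPM3 (-0.27) of 0.043. FBL lost its call without DMSO replicate 2 or without combination replicate 2 or 3, where its value lay between -0.35 and -0.24. NPM3 lost its call without DMSO replicate 1 or 2 or combination replicate 2 or 3, with values between -0.27 and -0.23, with the replicate block (-0.27) and with a minimum of 10 counts in every sample (-0.22). Total-count scaling ended the calls of FBL (-0.18), NPM3 (-0.11), NPM1 (-0.20), POLR1A (-0.14) and HEATR1 (-0.25). Of the 125 further genes 102 fell and 1 rose, which was RIOK3 at 0.31, beside the 26.5% and 27.1% of all genes.

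**Figure D5:**
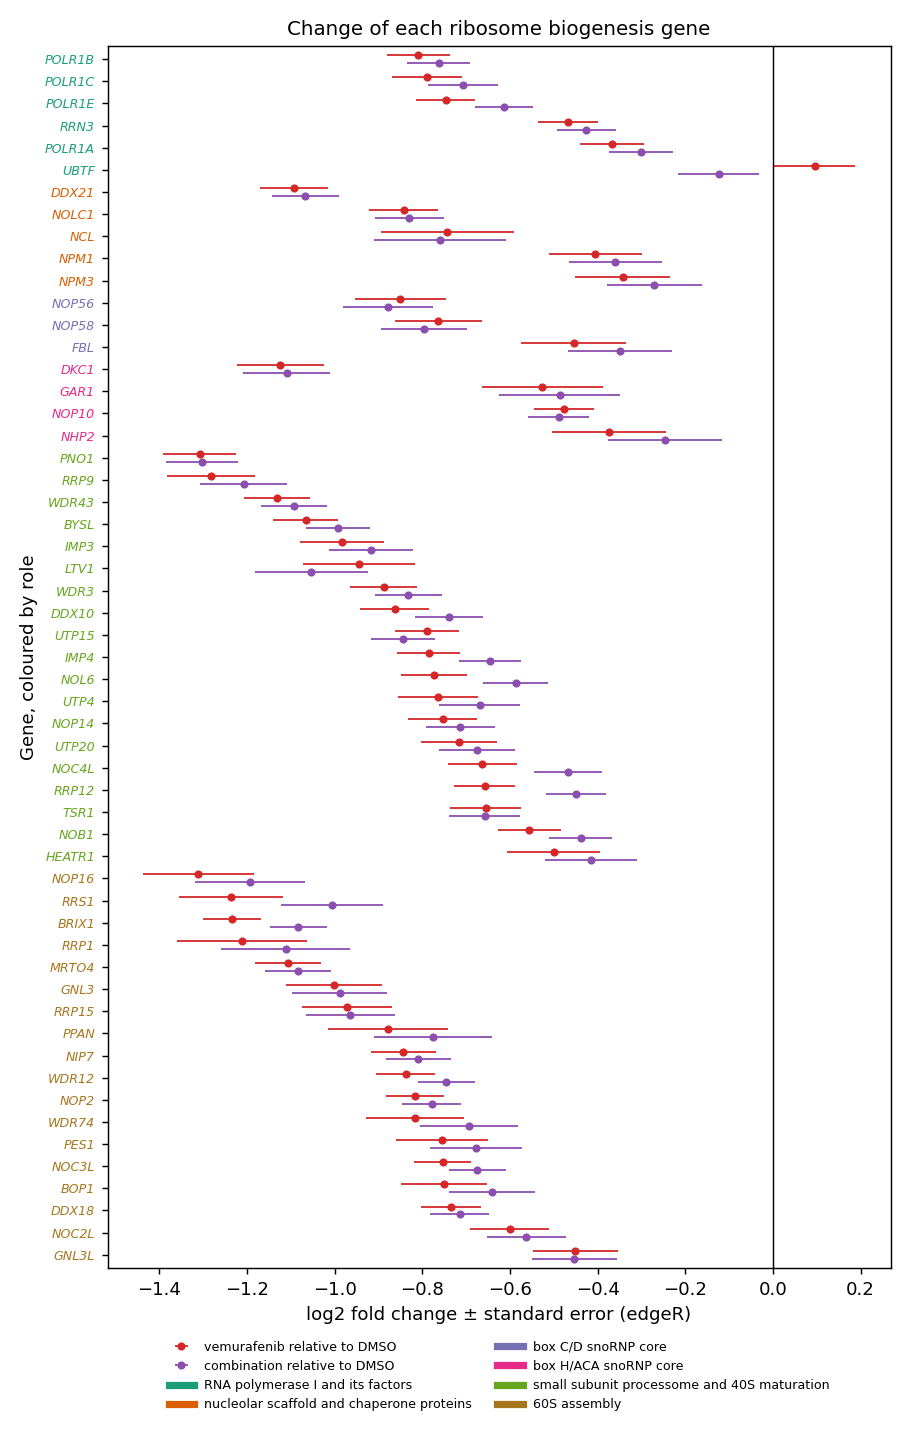
Log2 fold change with its standard error from edgeR for each of the 55 genes (rows, coloured by role and ordered by the change with vemurafenib), for vemurafenib (red) and the combination (purple) relative to DMSO. All points lie left of 0 except UBTF with vemurafenib, and NOP16 and PNO1 reach -1.31.

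Whether adding tretinoin to vemurafenib moved these genes was read from the combination against vemurafenib. None of the 55 genes passed edgeR's test, against 2.2% of all genes that fell and 2.27% that rose. At an unadjusted P of 0.05, 5 of the 55 and 2375 of all 16740 genes passed, and DESeq2 also called none of the 55, with 5 at the unadjusted level. A fit on only the vemurafenib and combination samples called 2 higher, RRP12 at 0.21 and NOL6 at 0.19. It called 584 of all genes higher, and 9 of the 55 passed at the unadjusted level. The 5 of the main fit became 2 without vemurafenib replicate 1 or 2 or combination replicate 2, and 1 without combination replicate 3. The median log2 fold change was 0.06, with 46 of 55 values above 0 and a range from -0.22 for UBTF to 0.23 for RRS1. Over all genes tested the median was 0.004, with 8564 of 16740 values above 0. Among the 4185 genes highest by mean count it was 0.003, with 2144 values above 0. In 11 of the 55 genes every combination sample lay above every vemurafenib sample, against 1952 of all 16740 genes (11.7%). In none did every sample lie below, against 12.5% of all genes. With total-count scaling 17 of the 55 values were below 0 in place of 9, and their median was 0.02.

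The smallest P in this comparison belonged to RRP12 (ENSG00000052749.13, chr10:97356358-97426076, minus strand), which takes part in the export of the subunits. Its normalized counts were 5324, 5909 and 5519 with DMSO, 4581, 5168 and 5028 with tretinoin, 3392, 3484 and 3743 with vemurafenib and 4217, 4038 and 4014 with the combination. The combination samples lay above the vemurafenib samples and below those of DMSO and tretinoin. Its log2 fold change, 0.21 ± 0.069 (adjusted P = 0.12), did not pass the test. A P that misses the threshold does not show that the treatments acted alike. The standard errors of this comparison lay between 0.066 and 0.15 on the log2 scale.

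Tretinoin alone gave no call among the 55 genes in edgeR's test, where 2.2% of all genes fell and 3.48% rose. At an unadjusted P of 0.05, 25 of the 55 genes passed, against 3915 of all 16740. DESeq2 called 5 lower, as it did 659 of all genes, with 26 of the 55 at the unadjusted level. The 25 became 9 without DMSO replicate 2, 15 without tretinoin replicate 1 and 12 in a fit on only the DMSO and tretinoin samples. With no filter on low counts 15 were called lower, as were 804 of all 41806 genes. The median log2 fold change was -0.15, with 46 of 55 values below 0. Over all genes tested it was 0.01, with 8052 of 16740 values below 0. In the highest 25% of genes by mean count it was -0.06, with 2701 of 4185 below 0. In 23 genes (41.8%) every tretinoin sample lay below every DMSO sample, against 12.9% of all genes, and in 1 gene above, against 11.3%. Without tretinoin replicate 1 the median was -0.08 and none was called. Without tretinoin replicate 3 the median was -0.20, 9 genes were called lower and UTP20 was called higher at 0.31. Of all 17151 genes in that fit 656 fell and 711 rose. With total-count scaling UTP20 was called higher at 0.34, 40 values in place of 46 were below 0, and the share of all calls that were falls went from 38.7% to 18.7%.

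The values with tretinoin ran from -0.43 ± 0.145 (adjusted P = 0.093) for RRP1 to 0.26 ± 0.086 (adjusted P = 0.081) for UTP20, neither of which passed the test. Without tretinoin replicate 1 they were -0.23 for RRP1 and 0.19 for UTP20. RRP9 had the smallest P, at -0.32 ± 0.098 (adjusted P = 0.063), and was at -0.19 without that library. NCL was at -0.37 on the log2 scale and at -0.14 without it, FBL at -0.36 and -0.21, NOP16 at -0.36 and -0.17, RRS1 at -0.35 and -0.19, and NPM1 at -0.33 and -0.19. All 8 of these genes lay closer to 0 without this library. POLR1A was at 0.18 and 0.12 without it, HEATR1 at 0.14 and 0.02, and POLR1B at 0.10 and 0.04. Without DMSO replicate 1, HEATR1 was at 0.07 and POLR1B at 0.06. None of the 125 further genes passed, with 55 at an unadjusted P of 0.05 and 8 called lower by DESeq2. None was called without tretinoin replicate 1, and 19 were called lower without tretinoin replicate 3.

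Relative to tretinoin alone, the combination lowered 49 of the 55 genes and raised none, against 25.0% and 24.1% of all genes tested. The median log2 fold change was -0.61, and in 44 genes (80.0%) every combination sample lay below every tretinoin sample, against 27.5% of all genes. PNO1 was lowest at -1.31 ± 0.082 (adjusted P = 6.3e-10), followed by WDR43 at -1.03. The 6 genes that did not pass were UBTF, NPM1, NPM3, FBL, NHP2 and GAR1. Without tretinoin replicate 1, 51 genes fell, the median was -0.67, PNO1 was at -1.28 and WDR43 at -1.10, and GAR1 passed the test at -0.37 in place of -0.17. With total-count scaling 46 genes fell, and the share of all calls that were falls went from 51.0% to 39.3%.

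The interaction term, the log2 change from vemurafenib to the combination minus that from DMSO to tretinoin, tests whether the change with tretinoin differed in the presence of vemurafenib. None of the 55 genes passed in edgeR's test, where 0.424% of all genes were lower and 0.382% higher. At an unadjusted P of 0.05, 21 of the 55 and 2619 of all genes passed. DESeq2 called 1 of the 55 higher, RRP12, as it did 124 of all genes. The 21 became 10 without DMSO replicate 2, and 13 without vemurafenib replicate 2 or with total-count scaling. With no filter on low counts 10 were called higher, as were 389 of all 41806 genes. The median was 0.20, with 46 of 55 values above 0 and a range from -0.22 for UTP20 to 0.58 for RRS1. Over all genes tested the median was -0.01, with 8139 of 16740 values above 0. Among the 4185 genes highest by mean count it was 0.05, with 2575 values above 0. Of the 55 genes RRP12 had the smallest P, at 0.39 ± 0.098 (adjusted P = 0.077). Without tretinoin replicate 1 the median was 0.15 and 2 genes, RRP12 and RRS1, were called at 0.34 and 0.42, while UTP20 was at -0.15. Of all 17119 genes in that fit 144 were called lower and 121 higher. With total-count scaling none was called, 16 values in place of 9 were below 0 and the median was 0.10, where the median of all genes shifted by -0.104 and the share of calls that were lower went from 52.6% to 78.6%.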

How the data were processed

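RNA from 12 samples of A375 cells was enriched for poly(A), sequenced in read pairs and aligned by the authors with STAR 2.5.3a to GRCh38.p10. They counted fragments per gene of GENCODE 27 with summarizeOverlaps in union mode with strand ignored, and deposited raw counts without normalization. A fragment that overlaps exons of more than 1 gene was thus not counted. Symbols, positions and exon overlaps came from GENCODE 29, which held 58084 of the 58347 genes. The members and gene lists were chosen with earlier results of these data known, and the values of a few genes outside the naming rule, UBTF among them, were added after they were seen.

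Counts were filtered with filterByExpr, normalized by TMM and fitted in edgeR 4.0.16 (R 4.3.3, limma 3.58.1) with a quasi-likelihood model that had a term per treatment and no block, on all 12 samples (common dispersion 0.00653). Adjusted P is the Benjamini-Hochberg value over all 16740 tested genes of a comparison, and genes under 0.05 were called. A standard error was obtained as the absolute log2 fold change over the root of F. The normalized count is the count scaled to the mean TMM-adjusted library size. On simulated counts with 200 changed genes, the edgeR fit called 111 of 112 changes of 1 on the log2 scale. It called 61 of 88 changes of 0.5, with 9 false calls. Smaller changes, or changes in as many genes as with vemurafenib, were not simulated. Named genes were the 3 with the highest level per exon length, the largest call per role and direction, the 5 largest calls per direction, the smallest P where no gene was called, and the largest fall with the combination. Alternatives were DESeq2 1.42.0, its size factors, total counts, no filter, a minimum of 10 counts per sample, a fit to only the groups compared, a replicate block, and each replicate left out. Exon sequence was compared with other genes by blastn 2.17.0 (at least 150 bases at 98% identity). Counts of replicates differed by more than sampling noise in every pair (chi-square per degree of freedom 2.56 to 21.8), so none was counted as a duplicate. Tables and figures were made in Python 3.11.15 with pandas 2.3.3, numpy 2.4.6 and matplotlib 3.10.9.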

Additional observations from a re-analysis of the deposited data

How the results depend on the processing

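Standard errors of 0.066 to 0.151 on the log2 scale for the 55 genes with vemurafenib hold the spread between samples as well as counting error, and small differences between treatments were not detectable. Of the 54 genes called lower with vemurafenib 50 kept the call in all 13 settings tried, and of the 53 with the combination 48. The genes that lost it in at least 1 setting were POLR1A, NPM1, NPM3 and NHP2 with vemurafenib, and POLR1A, NPM1, NPM3, FBL and HEATR1 with the combination.

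With total counts in place of TMM, 1 of the 55 genes rose with vemurafenib and 1 with tretinoin, UBTF with the combination went to 0.038, and of the 125 further genes 4 rose with vemurafenib, 3 with the combination and 1 with tretinoin. Under that scaling 2628 of all genes fell with vemurafenib in place of 4400, and 2916 with the combination in place of 4440. DESeq2 gave 5 falls of the 55 genes with tretinoin, 1 call in the interaction and 8 falls of the further genes with tretinoin, and its size factors gave 1 of the last kind. No filter on low counts gave 15 falls of the 55 genes with tretinoin, 10 calls in the interaction, 21 falls of the further genes with tretinoin and 2 rises with the combination. A fit on only the groups compared gave 2 rises of the 55 genes in the combination against vemurafenib and 2 of the further genes with the combination. It could not be run for the interaction, which needs all groups. Over all settings, falls among all genes ranged from 71 to 804 with tretinoin (368 in the main analysis), from 203 to 685 in the combination against vemurafenib (369) and from 27 to 221 in the interaction (71), and rises from 234 to 758 (583), 254 to 584 (380) and 31 to 389 (64). The cause of these differences was not tested.

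Leaving out single replicates gave 0 to 9 falls and 0 to 1 rises of the 55 genes with tretinoin, 0 to 2 calls in the interaction, and 0 to 19 falls and 0 to 1 rises of the further genes with tretinoin. The highest counts of falls came without tretinoin replicate 3. Falls of the 55 genes stayed between 52 and 54 with vemurafenib and between 51 and 54 with the combination. Where a group is left with 2 samples, the model pools the spread over all groups.

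Samples that share a replicate number did not deviate together (mean r across genes -0.0312 over 18 pairs, with 2 of 12 samples closest to their own number). No sign of pairing by number was thus seen, but this check cannot exclude a weak pairing. With the replicate block, 54 of the 55 genes fell with vemurafenib, 52 with the combination, 48 in the combination against tretinoin and 0 with tretinoin.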
